A study of Mus musculus with 4 samples.

Results

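This account concerns 10 genes that load and start the replicative DNA helicase: Mcm2, Mcm3, Mcm4, Mcm5, Mcm6, Mcm7, Mcm10, Cdc6, Cdt1 and Gins1. They were taken by gene symbol from the array's annotation, which gave 28 probe sets for them among the 45037 in the table. The samples are colonic intestinal epithelial cells (IECs) of C57BL/6 mice, on 4 Affymetrix Mouse430_2 arrays with 1 array for each genotype: wild type (WT), Bmi1ΔIEC, Mel18ΔIEC, and Bmi1ΔIEC Mel18ΔIEC, the double knockout (DKO). All 4 groups shared the same treatment: sex-matched mice aged 6 to 8 weeks were injected with azoxymethane, a colon carcinogen, at 10 mg/kg, drank 3.5% dextran sulfate sodium for 5 days starting 5 days later, and were killed on day 12, a model of colitis-associated colorectal cancer. The cells were released from the opened colon with EDTA and no sorting step is described. Bmi1 and Mel18 (gene symbol Pcgf2) are related subunits of a Polycomb repressive complex. The symbol ΔIEC marks loss in intestinal epithelial cells, but the promoter driving the recombinase, the deleted exons and the number of mice behind an array are not stated in the labels. The series text puts 4 after wild type, 3 after Bmi1, 2 after Mel18 and 1 after the double knockout, which are also the places of these samples in the series.

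Before a cell copies its DNA, each replication origin is licensed. The origin recognition complex, with Cdc6 and Cdt1, loads a ring of the subunits Mcm2 to Mcm7 onto DNA, where it waits as an inactive helicase. At the start of S phase Mcm10, Cdc45 and the GINS complex, of which Gins1 is a subunit, join and activate it, and geminin and protein breakdown block reloading until the next cycle. The licensing genes are classic targets of the E2F transcription factors and are switched off when cells leave the cycle. In the colon they are known as marks of the dividing cells in the lower crypt.

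Because the members moved together across the arrays, the letters upstream of their start sites were read from RefSeq promoter windows of assembly GRCm38.p6, which reach from 250 bases before a start site to 50 after it. Windows were listed for 8 of the 10 genes; Mcm4 and Gins1 had no entry. The E2F letters searched were TTTCCCGC, TTTGGCGC, TTTCGCGC and TTTGCCGC on both strands. They occurred in 6 of the 8 genes, namely Mcm3, Mcm5, Mcm6, Mcm7, Cdc6 and Cdt1, against 2.6% of 27025 genes with a window. In Mcm3 and Cdt1 the matches lay only after the start site. In the bases before the start site alone, 4 of the 8 genes held a match, against 2.16% of genes. The sequences below show Mcm5 and Mcm6, the genes with the largest differences between the double-knockout-labelled and wild-type arrays, and Mcm2 and Mcm10, which had no such letters in the window. Each runs 5′ to 3′ on the gene's own strand from 170 bases before the start site, stops before the annotated gene begins, and has E2F letters in capitals.
Mcm5: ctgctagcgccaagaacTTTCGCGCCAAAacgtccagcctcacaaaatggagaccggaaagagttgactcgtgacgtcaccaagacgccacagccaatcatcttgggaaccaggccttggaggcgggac
Mcm6: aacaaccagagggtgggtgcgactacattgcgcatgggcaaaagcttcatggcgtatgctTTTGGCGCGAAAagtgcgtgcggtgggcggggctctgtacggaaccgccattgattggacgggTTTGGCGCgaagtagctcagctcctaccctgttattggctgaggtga
Mcm2: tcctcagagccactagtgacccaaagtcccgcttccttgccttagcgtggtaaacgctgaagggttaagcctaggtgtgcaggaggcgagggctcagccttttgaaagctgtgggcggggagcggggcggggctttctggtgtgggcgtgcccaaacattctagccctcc
Mcm10: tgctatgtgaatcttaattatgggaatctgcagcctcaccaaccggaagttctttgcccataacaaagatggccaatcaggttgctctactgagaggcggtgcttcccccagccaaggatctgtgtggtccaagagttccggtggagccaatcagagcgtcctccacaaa

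The Mcm5 stretch is chr8:75109339-75109467 on the plus strand, and the others lie on the minus strand at chr1:128359706-128359875 (Mcm6), chr6:88898781-88898950 (Mcm2) and chr2:5012792-5012961 (Mcm10), all directly upstream of the annotated genes. In Mcm5 and in the distal element of Mcm6, 2 overlapping matches on opposite strands make up 1 capital run of 12 bases. In Mcm6 these begin 110 and 106 bases before the start site and a further match begins 47 bases before it. The letters of the cell-cycle homology region, TTTGAA on either strand, which is typical of genes of mitosis, occurred in 1 of the 8 licensing genes (Mcm2), in 12 of 17 genes of a list of mitosis genes and in 20.2% of all genes. E2F letters occurred in 1 of those 17 mitosis genes. A CCAAT box, CCAAT on either strand, was present in 6 of the 8 licensing genes and 15 of the 17 mitosis genes, against 41.1% of all genes. Of 50 other genes of replication, from the lists described later, 16 held E2F letters. These matches describe letters in a window and are not evidence of binding.

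Values are intensities per probe set on a linear scale, and differences are given as log2 of the ratio of 2 arrays. The floor, set at the median of all values, was 33.4 units, and a value below it may be mostly background. The size rule calls a gene or probe set lower or higher where the difference was 2-fold or more and the brighter value reached the floor. Each genotype has a single array, hence no replicate and no test, so each difference compares 2 arrays and not 2 genotypes, and precision is limited by having so few arrays. Of the 28 probe sets, 20 reached the floor on at least 1 array, 17 of them on all 4, and each of the 10 genes had at least 1 such probe set. Each gene is represented by its brightest probe set.

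The targeted genes did not check the labels. The Bmi1 probe sets read 116 and 88.4 for wild type, 334 and 339 for Bmi1, 160 and 135 for Mel18 and 432 and 399 for double knockout, so they were brighter where the label includes loss of Bmi1. The brighter Pcgf2 probe set ranged from 30.2 to 39.8, close to the floor. Arrays are therefore called by their labels. The brightest Xist probe set read 122, 45.5, 54.2 and 611 in the order wild type, Bmi1, Mel18 and double knockout, while the brighter probe set of the Y-linked Eif2s3y read 246, 282, 198 and 229. Their part in the differences was not tested. All 11 epithelial markers, such as Epcam and Vil1, reached the floor on every array, and their summed intensity ranged from 74087 to 84697.

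All 10 licensing genes were lowest on the double-knockout-labelled array and second lowest on the Mel18-labelled array, with wild type and Bmi1-labelled above both. The same held for 20 of the 20 probe sets that reached the floor. Among everything that reached the floor, 7.62% of genes and 6.79% of probe sets had this order. Cdc6 is counted here although it was under the floor on every knockout-labelled array, so its order among them may reflect background. In 9 of the 10 genes the array order was wild type, Bmi1, Mel18, double knockout, against 3.23% of genes. Mcm6 alone read higher on the Bmi1-labelled array than on wild type, by 0.07. That difference was -0.16 with arrays centred on the median gene reaching the floor and -0.05 after quantile normalization. It was 0.16 with arrays centred on their medians, where Mcm4 (0.04) and Cdt1 (0.05) also read higher. By the mean over a gene's probe sets Mcm4 (0.03), Cdt1 (0.05) and Mcm6 (0.17) read higher. The order with wild type and Bmi1-labelled both above Mel18-labelled, and double knockout lowest, was noticed in the data and then counted. It also held for every member that reached the floor under each alternative processing, 7 to 10 members depending on the alternative. A changed floor or size rule leaves the values as they are, so those alternatives could not change the order.

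**Figure D1:**
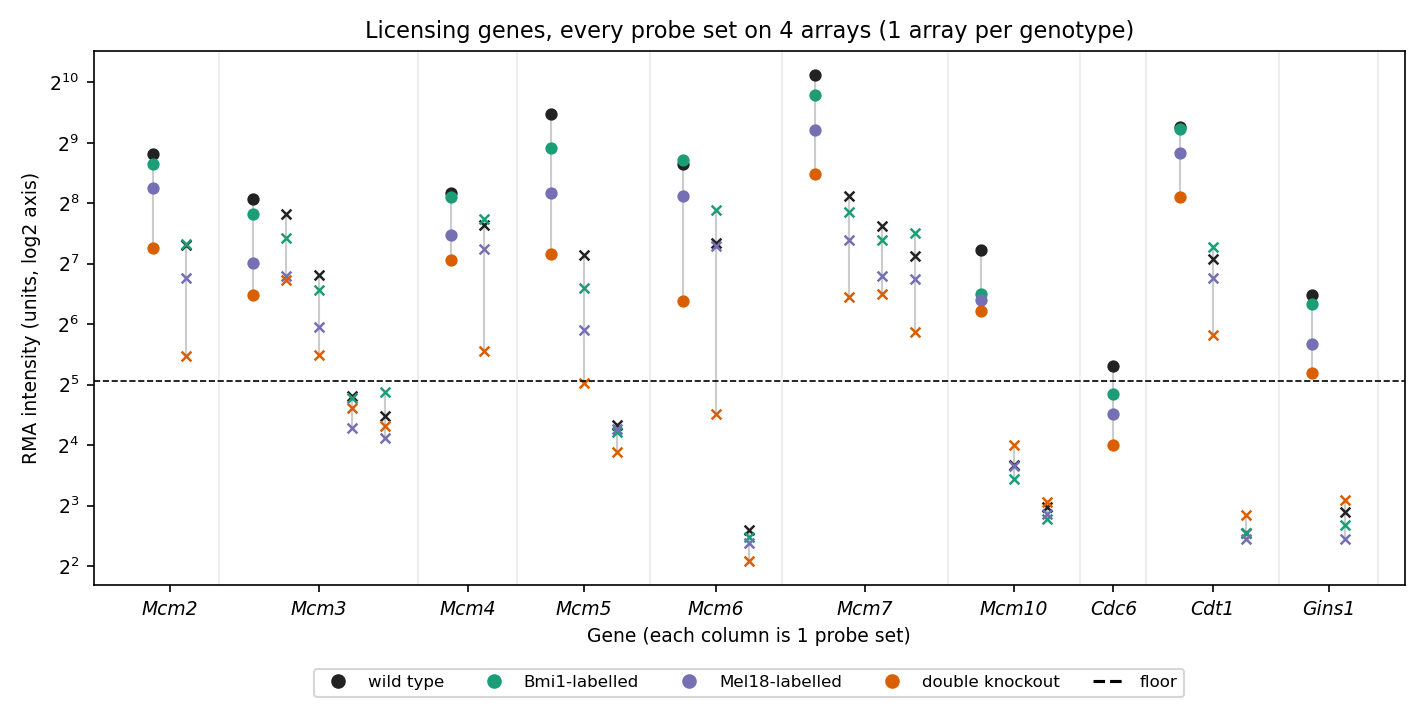
Intensity (log2 axis) of each of the 28 probe sets of the licensing genes on the 4 arrays, grouped by gene; circles mark each gene's brightest probe set, crosses the others, and the dashed line the floor of 33.4 units. In all 20 probe sets that reach the floor the double-knockout-labelled array is lowest, while the 8 probe sets under the floor follow no shared order.

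The ring subunits came first. Mcm5 read 714 units for wild type, 481 for Bmi1, 287 for Mel18 and 143 for double knockout. It stepped down at every array, and its difference of -2.32 on the log2 scale between double knockout and wild type was the largest of the 10 genes. Mcm6 read 403, 422, 279 and 83.1 in the same order. Unlike Mcm5, it was nearly level between wild type and Bmi1-labelled, and most of its difference of -2.28 lay between the Mel18-labelled and double-knockout-labelled arrays, which differed by -1.75. Mcm2 read 448, 401, 307 and 153, and Mcm7 read 1114, 886, 596 and 358. Both showed the common stepwise order, with differences of -1.55 and -1.64 between double knockout and wild type. Mcm3 read 270, 225, 130 and 89.0, so its larger step was between the Bmi1-labelled and Mel18-labelled arrays, at -0.80. Mcm4 read 287, 276, 177 and 133, the smallest difference from wild type on the double-knockout-labelled array among the ring subunits, at -1.11.

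The loading factors followed the same order. Cdt1, which brings the ring to the origin, read 614 for wild type, 598 for Bmi1, 457 for Mel18 and 276 for double knockout, a difference of -1.15 between the last and wild type. Cdc6, the ATPase that works with the origin recognition complex, read 39.7, 28.6, 22.7 and 16.1 from its 1 probe set. Only the wild-type value reached the floor, so the size of its difference of -1.30 is not exact and may include background.

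Of the genes that turn the loaded ring into an active helicase, Gins1 read 89.5, 80.9, 51.2 and 36.6, a difference of -1.29 from wild type on the double-knockout-labelled array. Mcm10, which shares its name but not the ring fold with the other subunits, had another shape. It read 150 units for wild type, then 90.4, 84.4 and 74.4 in the usual order. The 3 knockout arrays lay close together, and its difference of -1.01 between double knockout and wild type only just passed the size rule.

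**Figure D2:**
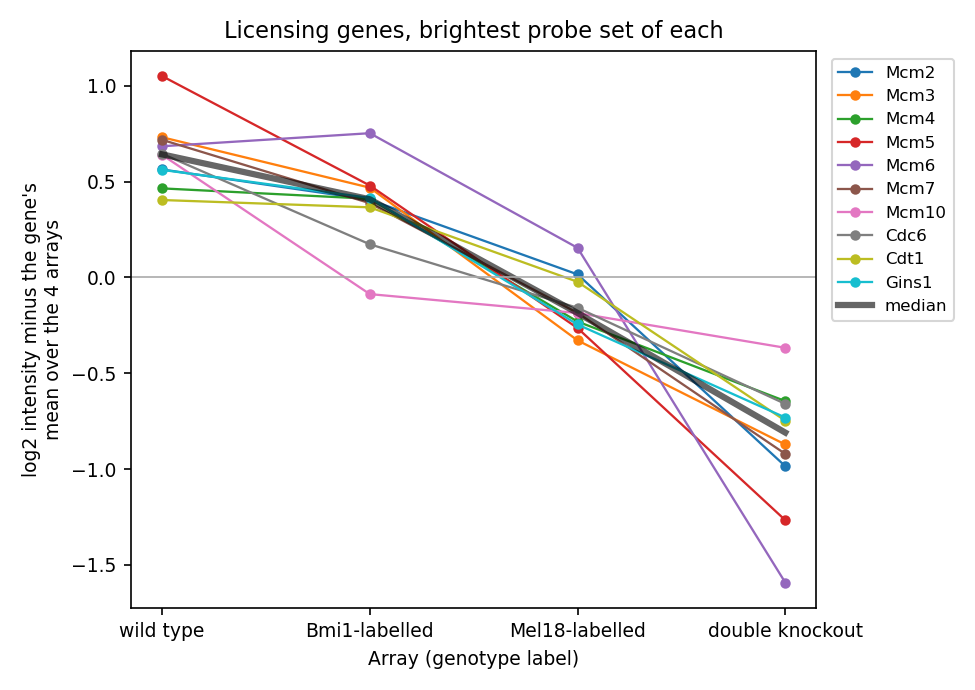
Log2 intensity of each licensing gene's brightest probe set minus that gene's mean over the 4 arrays, with lines joining the values of a gene and the thick line their median (0.64, 0.41, -0.19 and -0.81 from wild type to double knockout). Mcm6 lies above the median line on the first 3 arrays and farthest below on the double-knockout-labelled array, and Mcm10 steps down mainly between wild type and the Bmi1-labelled array.

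Against wild type, all 10 licensing genes were lower by the size rule on the double-knockout-labelled array, where 2.19% of the 11853 genes tested were lower. The members were chosen with earlier results of these data known, so this count describes them and is no independent evidence. The median difference of the 10 was -1.43, a wild-type level 2.69-fold that of the double knockout, while the median gene that reached the floor differed by -0.01. The differences ranged from -2.32 for Mcm5 to -1.01 for Mcm10. Mcm5 ranked 21 and Mcm6 24 from the lowest of all genes tested, and Mcm10 ranked 257. A gene's mean over its probe sets mixes in probe sets under the floor. By that mean, 8 genes reached the floor and 6 of them were lower, against 1.62% of genes tested.

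On the Mel18-labelled array 2 of the 10 were lower than wild type by the size rule, Mcm5 at -1.31 and Mcm3 at -1.06, against 2.5% of all genes. By the mean over probe sets this count was 0, against 2.2% of genes. All 10 differences were negative, however, from -1.31 to -0.43 (Cdt1) with a median of -0.80, where 41.9% of genes tested were below 0 and the median gene differed by 0.07. On the Bmi1-labelled array no member was lower by the size rule, against 2.86% of genes, and 9 of 10 were below 0, against 40% of genes. The median there was -0.21, where the median gene differed by 0.12, and only Mcm10 (-0.73) and Mcm5 (-0.57) differed from wild type by more than 0.5. These 3 comparisons share the wild-type array, so their agreement is no independent evidence.

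Between knockout arrays, 8 of 9 genes tested were lower on the double-knockout-labelled array than on the Bmi1-labelled array, against 7.96% of all genes tested, with a median of -1.31. Mcm10 (-0.28) did not pass. Cdc6 was under the floor on all 3 knockout arrays, so it could not be called among them, and its difference here was -0.83. Once arrays were centred on the median gene reaching the floor, 5 genes passed, against 4.32% of genes. The median of all 10 genes was then -0.99 in place of -1.23. Against the Mel18-labelled array 3 of 9 were lower, Mcm6 at -1.75 and Mcm5 and Mcm2 both at -1.0, against 4.53% of genes, with a median of -0.72. The last pair sat at the edge of the rule. The count of 3 became 1 under that centring (3.04% of genes) or after quantile normalization (4.24%). The Mel18-labelled array was below the Bmi1-labelled array in all 9 genes tested, against 57.9% of genes tested, with a median of -0.60, but none passed the size rule, which 0.882% of genes passed downwards.

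The difference that goes with each label can be read on 2 backgrounds that share no array. Over all 10 genes, the Bmi1 label went with a median of -0.21 on the wild-type background (Bmi1-labelled minus wild type) and -0.63 on the Mel18-labelled background. The Mel18 label went with -0.80 on the wild-type background and -1.23 on the Bmi1-labelled background. The non-additive term, found by subtracting both single knockouts from the double knockout and adding wild type, was negative in 9 of 10 genes with a median of -0.38. It was negative in 59.8% of all genes, with a median of -0.21, and under the same centring the licensing median was 0.013 and that of all genes 0.20, so its sign depends on the scaling while it stayed below the median gene in both. Mcm6 was the one gene at or below -1, at -1.81, against 18.6% of genes, and Mcm10 the one above 0, at 0.55.

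**Figure D3:**
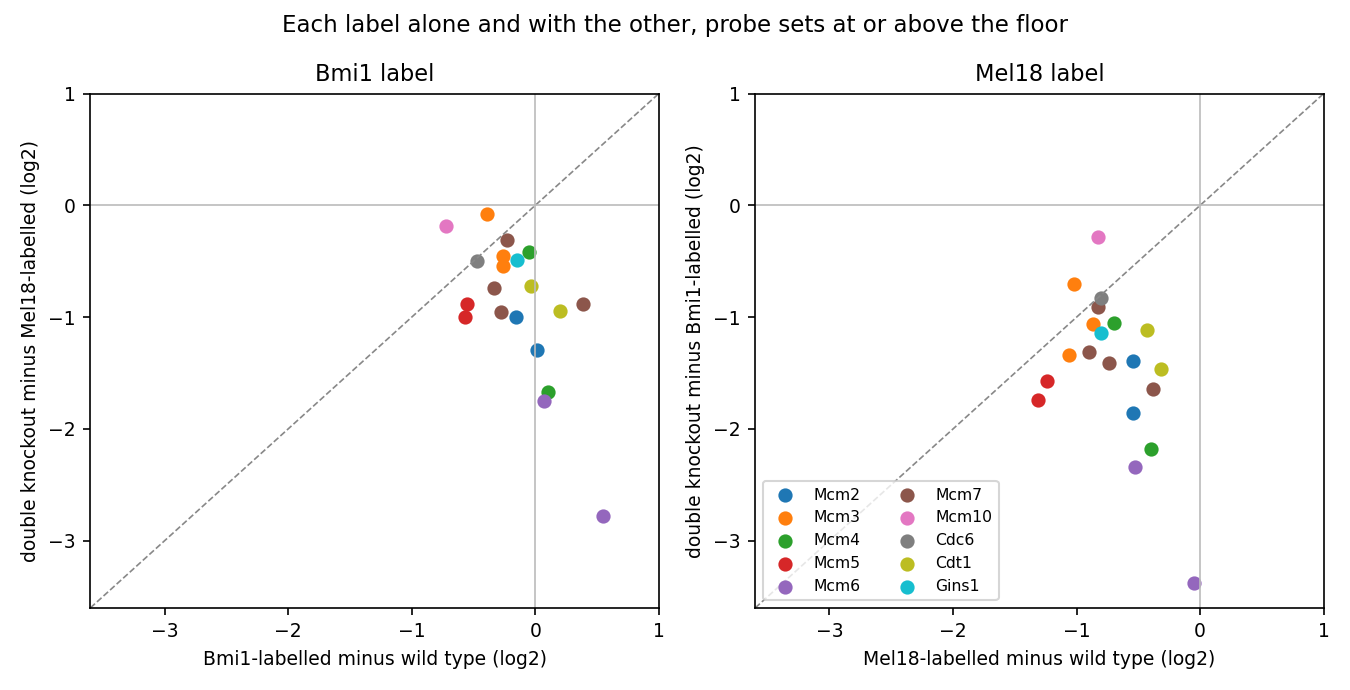
Log2 difference that goes with the Bmi1 label (left) and the Mel18 label (right), on the wild-type background on the horizontal axis and on the background of the other label on the vertical axis, for the 20 probe sets that reach the floor, coloured by gene; the dashed diagonal marks equal differences. Every point lies below 0 on the vertical axis, 6 lie above 0 on the horizontal axis at left, and the second Mcm6 probe set is farthest from the diagonal in both panels.

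Probe sets of a gene agreed on direction for most comparisons. Of the 7 genes with more than 1 probe set at the floor, all 7 had the same sign in every comparison except Bmi1-labelled against wild type, where 4 did not (Mcm2, Mcm4, Mcm7 and Cdt1). In that comparison Mcm7 read 0.39 by 1 probe set (140, 183, 107 and 58.4 units from wild type to double knockout) and -0.33, -0.28 and -0.23 by the other 3. All 7 genes were lower by the size rule on the double-knockout-labelled array than on wild type by every such probe set, against 2% of probe sets, but the sizes differed by 0.11 to 0.96. The widest spread was for Mcm4, at -1.11 by its brightest probe set and -2.07 by the other, which read 199, 214, 151 and 47.3. Mcm6 read -2.28 and -2.83, and its second probe set, at 162, 237, 157 and 22.8, was under the floor on the double-knockout-labelled array. Mcm3 gave -1.60, -1.09 and -1.32 by its 3 probe sets. The call of Mcm3 against wild type on the Mel18-labelled array was not shared by its probe set at -0.86. Of the 10 brightest probe sets 7 carry the name endings _s_at, _x_at or _a_at, which the array's maker gives to sets whose probes can match more than 1 transcript. Without these endings 7 of the 10 genes had a probe set at the floor. On the double-knockout-labelled array 7 of 7 were lower than on wild type, against 2.19% of genes.

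The 8 probe sets that stayed under the floor, of 6 genes, read between 4.23 and 29.3 units. Their differences between double knockout and wild type ran from -0.51 to 0.34, and 4 were above 0, among them both remaining probe sets of Mcm10. No level of these genes is read from them.

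Other genes of the pathway, from lists that were fixed for this account with earlier results of these data known, showed how far the difference reached. The origin recognition complex, which marks origins, had none of its 7 genes lower or higher in any of the 6 comparisons. Its median difference between double knockout and wild type was -0.14, with Orc6 at -0.60, Orc2 at -0.28, Lrwd1 at -0.22 and Orc4 at -0.14, and with Orc5 at -0.07 and Orc3 at -0.00. The paralogs Mcm8 and Mcm9, which act in recombination repair, and the MCM-binding protein Mcmbp read -0.67, -0.01 and -0.11, and none passed against wild type, though Mcm8 was lower than on the Bmi1-labelled array at -1.21. Mcmdc2 was not analysed here.

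The counts of lower genes that follow stand against 2.19% of all genes tested between double knockout and wild type. Of 6 genes that regulate licensing, listed here as brakes, 2 were lower on the double-knockout-labelled array. They were Dtl, which directs Cdt1 to destruction, at -1.30 and the ubiquitin ligase subunit Skp2 at -1.14. Geminin (Gmnn), the direct inhibitor of Cdt1, read 443 units for wild type, 531 for Bmi1, 443 for Mel18 and 288 for double knockout, a difference of -0.62 that did not pass. Fzr1 (0.30), Cul4a (-0.05) and Ddb1 (-0.05) did not pass either.

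Of 15 origin firing factors 3 were lower, Ccne2, an S-phase cyclin, at -1.66, the GINS subunit Gins2 at -1.12 and Topbp1 at -1.10, and the median was -0.52. Cdk2 read -0.85 and Recql4 -0.13. Gins4, another GINS subunit, read 0.04, so the subunits of that complex did not share a size. Of 29 replication fork genes at the floor 10 were lower, with a median of -0.66. They included the polymerase alpha catalytic subunit Pola1 at -1.55, the checkpoint adaptor Clspn at -1.54, Timeless at -1.40 and the nuclease Dna2 at -1.34. Prim2 read 0.13 and Pole3 -0.09. None of these genes was higher by the size rule in any of the 6 comparisons.

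Genes of mitosis differed from the licensing genes on the Mel18-labelled array. Their median there was 0.06 from wild type, with none of 19 past the size rule, where the licensing median was -0.80. Other replication lists differed from the licensing genes there too. Their medians were 0.01 for the origin recognition complex, 0.09 for the brakes, 0.23 for the paralogs, -0.30 for firing factors and -0.35 for fork genes. On the double-knockout-labelled array all 19 mitosis genes were below wild type with a median of -0.78. Of these 4 passed: Top2a at -1.45, the proliferation marker Mki67 at -1.44, Bub1 at -1.42 and Aurkb at -1.30. Cenpf (-0.33) and Ccnb2 (-0.18) were the smallest. The array order first noticed in the licensing genes was shared by 7 of the 19 mitosis genes, 20 of 29 fork genes, 8 of 15 firing factors, 2 of 7 genes of the origin recognition complex, 2 of 6 brakes and none of the 3 paralogs, against 7.62% of all genes. Whether the lists differ in this was not tested, since 1 array per genotype allows no test. Of 9 housekeeping genes none passed in any of the 6 comparisons, and their median between double knockout and wild type was 0.03.

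**Figure D4:**
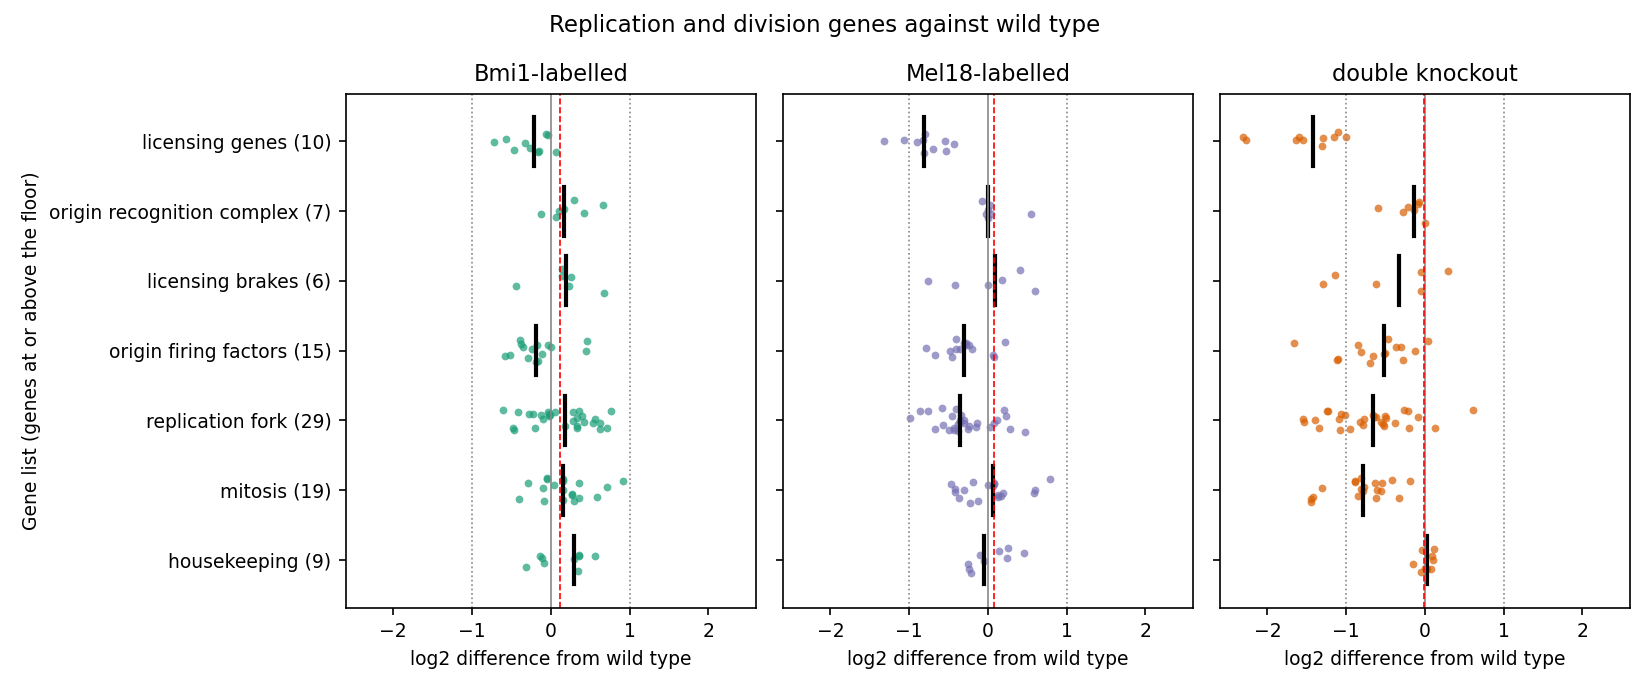
Log2 difference from wild type on the 3 knockout-labelled arrays for genes at or above the floor in 7 lists; points are genes, black bars the list medians, dotted lines the 2-fold limits and the red dashed line the median of all genes. The 10 licensing genes all lie left of the -1 line on the double-knockout-labelled array, where mitosis genes centre at -0.78. On the Mel18-labelled array mitosis genes (0.06), the origin recognition complex (0.01) and the licensing brakes (0.09) centre near 0.

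The 10 genes whose 4 values, centred on their own mean, lay nearest to the median licensing profile by Euclidean distance were named out of 12144 compared. They were Chek1, the S-phase checkpoint kinase, at a distance of 0.13, then Timeless at 0.17, Fads1 at 0.21, Rrm1 of deoxynucleotide synthesis at 0.22, Pop1 and Dna2 at 0.24, Tcf19 at 0.24, Stil at 0.26, DNA ligase Lig1 at 0.28 and Atad2 at 0.29. Chek1 read 87.5 units for wild type, 68.5 for Bmi1, 49.1 for Mel18 and 29.0 for double knockout. With 4 arrays, a close profile is a description only. Among the members Gins1 (0.13) and Mcm7 (0.14) lay nearest to their own median and Mcm6 (0.92) farthest.

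Markers of cell types moved with some of these comparisons. In a preparation of mixed cells, fewer dividing cells and less RNA of these genes per cell cannot be told apart. Of 6 crypt base markers, 3 were higher than wild type on the Bmi1-labelled array, Smoc2 at 2.16, Lgr5 at 2.11 and Ascl2 at 1.54, where 5.76% of genes were higher. On the double-knockout-labelled array 3 were lower, Cdca7 at -1.79, Axin2 at -1.12 and Smoc2 at -1.06, and Sox9 was higher at 1.68, where 2.13% of genes were higher. Their summed intensity was 599 for wild type, 1302 for Bmi1, 836 for Mel18 and 726 for double knockout, but Sox9 made up most of the last value. Without Sox9, left out after its values were seen, the sums were 430, 988, 558 and 185. On the double-knockout-labelled array 5 of the 6 markers were below wild type and 3 were under the floor. Lgr5 was under the floor on both of these arrays (21.7 for wild type and 18.8 for double knockout). On the Mel18-labelled array the differences of the 6 from wild type ran from 0.11 (Axin2) to 1.18 (Smoc2). The summed intensity of 7 differentiated colonocyte markers was 33136, 25140, 34256 and 47152, with 2 of the 7 higher and 2 lower than wild type on the double-knockout-labelled array. The higher pair, Car1 (5421 units for wild type and 14807 for double knockout) and Guca2a (2542 and 13501), made up most of the last sum. The lower pair was Aqp8 at -1.43 and Slc26a3 at -1.15, and 4 of the 7 markers were below wild type there.

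Of cells outside the epithelium, 10 fibroblast markers summed to 3587, 1737, 3913 and 5818 units in the same order. On the double-knockout-labelled array 2 of the 10 were higher than wild type, where 2.13% of genes were higher. The 9 measured T and NK cell markers summed to 835, 608, 450.3 and 1687, with 3 of the 8 at the floor higher there and Cd2 under the floor on all arrays. The 9 measured neutrophil markers summed to 2264, 241, 321 and 2096, with Cxcr2, Mpo and Camp under the floor on all arrays. S100a8 (935, 33.1, 93.4 and 851), S100a9 (762, 16.0, 52.7 and 731) and Ltf (384, 62.4, 32.1 and 289) made up most of the wild-type and double-knockout sums. The 11 macrophage markers summed to 3953, 2675, 2441 and 4013, with Itgam under the floor on all arrays. Neither the neutrophil nor the macrophage list had a member past the size rule between double knockout and wild type. On the Bmi1-labelled array 3 neutrophil, 6 macrophage, 4 fibroblast and 1 T and NK cell markers were lower than wild type, against 2.86% of genes. The Mel18-labelled array had 3 neutrophil, 1 macrophage and 3 T and NK cell markers lower, against 2.5% of genes. Higher than wild type were the fibroblast marker Fap on both arrays (1.53 and 1.07) and the endothelial marker Vwf on the Bmi1-labelled array (1.08). Cd14 made up most of the macrophage sum on the Bmi1-labelled array, and without it, left out after its values were seen, the sums were 2755, 1127, 1685 and 3292. The 6 measured B and plasma cell markers summed to 1072, 1001, 935 and 1931, with 1 higher and Pax5 under the floor on all arrays. The higher one, Jchain, read 789, 786, 725 and 1686 units and made up most of each sum. Of the 5 markers at the floor, 3 were below wild type on the double-knockout-labelled array. The 6 endothelial markers, with Pecam1 and Tek under the floor on all arrays, summed to 184 to 230 units and the 6 smooth muscle markers to 4157 to 6475, with none past the size rule between double knockout and wild type. The part of these cells in the licensing differences was not tested.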

How the data were processed

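Expression was measured on 4 one-colour arrays, 1 per genotype. The authors deposited 1 intensity per probe set; the submitters' processing notes name RMA and Affymetrix Expression Console, without versions. They are on a linear scale, and log2 was taken with no pseudocount. Of values of 100 or more, 9.75% to 10.8% per array share 1 remainder after division by 0.25 (within 1e-05; 0.008% if even), a pattern that means over 4 arrays of whole numbers can leave. Of the probe sets, 34945 had 1 gene symbol, 932 several and 9160 none listed; 34741 of those with 1 matched a current gene of GRCm38.p6. No probe set of several genes named a member. Each of 18193 genes took its probe set with the highest mean log2 value, and 12154 reached the floor. The members and lists were chosen with earlier results of these data known. The named genes are all members and, per list, up to 4 with the largest and 2 with the smallest difference between double knockout and wild type, any past the size rule against most of its list, and the 10 nearest profiles; marker genes named were past the size rule, under the floor, examples of their list or chosen after their values were seen. The counting was tested on simulated data. Alternatives covered the probe-set summary, floor, scaling, size rule and probe-set endings. Python 3.11.15, pandas 2.3.3 and numpy 2.4.6 were used. Some genes of the marker lists were not analysed here.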

Additional observations from a re-analysis of the deposited data

Results flagged for a closer look

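For 6 of the 20 licensing probe sets at the floor, the Bmi1 label went with a higher value on the wild-type background and a lower one on the Mel18-labelled background, as it did in 42% of all probe sets at the floor, and with 1 array per genotype this difference was not tested. The values that follow are the double knockout less both single knockouts plus wild type, on the log2 scale. For Mcm6 it was -1.81 by the brightest probe set, where the Bmi1 label went with 0.07 alone and -1.75 with the Mel18 label, and -3.33 by the second, with 0.54 and -2.78. For the second probe sets of Mcm4 and Mcm2 it was -1.78 (0.11 alone and -1.67 with the Mel18 label) and -1.31 (0.02 and -1.29). For 1 probe set each of Mcm7 and Cdt1 it was -1.27 (0.39 and -0.88) and -1.14 (0.20 and -0.94). The brightest probe sets of Mcm2, Mcm4, Mcm7 and Cdt1 did not show opposite signs. The count depends on the scaling: it was 2 of 20 with arrays centred on the median gene reaching the floor (26.1% of all probe sets), 3 after quantile normalization (37.7%) and 8 with arrays centred on their medians (48.2%). Under the first and second of these the brightest Mcm6 probe set no longer had opposite signs.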

How the results depend on the processing

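The values compare single arrays, no array could be left out, and values near 33.4 units limit Cdc6, Gins1 and the second probe sets of Mcm5 and Mcm6. On the double-knockout-labelled array the second Mcm5 probe set read 32.5 and the brightest Gins1 probe set 36.6. No paired analysis was possible because each genotype has 1 array. The double knockout against wild type kept all members at the floor lower under every alternative (7 to 10 members, median -1.58 to -1.32) except the mean over probe sets, by which 6 of 8 were lower. Of all genes, 1.62% were lower by that mean, and the other alternatives ran from 1.47% (no floor) to 6.56% (1.5-fold rule). Dropping the floor or loosening the rule to 1.5-fold could not remove a call. By the mean over probe sets, 0 members were lower on the Mel18-labelled array than on wild type (2.2% of all genes). With the same mean, 5 of 8 were lower on the double-knockout-labelled than on the Bmi1-labelled array (6.02%). Centred on the median gene reaching the floor, the arrays gave 5 members lower between double knockout and Bmi1-labelled (median -0.99, 4.32% of genes). That centring left 1 member lower between double knockout and Mel18-labelled (3.04% of genes). The median non-additive term was then 0.013, where that of all genes was 0.20. Quantile normalization also gave 1 between double knockout and Mel18-labelled (4.24% of genes). A 1.5-fold rule counted 1 member lower for Bmi1-labelled against wild type (7.53% of all genes), 7 for Mel18-labelled against wild type (median -0.80; 6.28% of genes), 5 for double knockout against Mel18-labelled (median -0.63; 14.1%) and 5 for Mel18-labelled against Bmi1-labelled (median -0.59; 3.46%). Without the shared-probe endings 1 member was lower on the Mel18-labelled array than on wild type (2.42% of genes). Centring moved the median of all genes between Bmi1-labelled and wild type from 0.12 to 0.21 (array medians) or -0.12 (genes at the floor), and the licensing medians moved with it. The order with wild type and Bmi1-labelled both above Mel18-labelled, and double knockout lowest, was counted as an added alternative chosen after seeing the data. It held for every member at the floor. The alternatives of floor and size rule could not change that order. No alternative turned a called difference of a member. The cause of these shifts was not tested.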
